A study of Mus musculus with 6 samples.

Results

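The 10 sebaceous gland lipid genes, Scd1, Scd3, Elovl3, Elovl4, Awat2, Dgat2, Soat1, Pparg, Mgst1 and Fasn, were followed in total RNA-seq of FACS sorted hair follicle stem cells (HFSCs). They were taken by gene name, 10 of the 56941 genes in the count table, and all 10 were found once. HFSCs were sorted as CD34+/α6-integrin+ cells from dorsal skin of female mice at PD68 (postnatal day 68). The 3 WT libraries came from Dab2 fl/fl mice without K14CreER and the 3 Dab2-cKO libraries from Dab2 fl/fl mice with K14CreER, a tamoxifen-activated Cre recombinase under the keratin 14 promoter. K14 is active in basal epidermal and follicular keratinocytes, so the deletion was not directed at HFSCs alone. Both genotypes carried the floxed alleles, both had the strain label B6;129S4-Dab2tm1Cpr/J, and both received 75 mg/kg tamoxifen intraperitoneally on 5 consecutive days.

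The sebaceous gland is attached to the hair follicle above the bulge, where HFSCs reside. Its cells, the sebocytes, fill with lipid and burst to release sebum, a mixture rich in wax esters, triglycerides and sterol esters. Fatty acids are built by fatty acid synthase, lengthened by ELOVL elongases, given a double bond by stearoyl-CoA desaturases, and then joined to alcohols, glycerol or sterols by acyltransferases. The nuclear receptor PPARγ drives sebocyte maturation, and it is also the main regulator of fat cells. Several of these genes are used by adipocytes and by interfollicular keratinocytes too, so none of them marks sebocytes alone.

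Promoter sequence is shown for 4 of the genes, chosen to set the gene with the smallest change between genotypes (Fasn) and the gene with the largest (Elovl4) beside 2 acyltransferase genes (Soat1 and Awat2). RefSeq promoter windows on GRCm38.p6, each 300 bases long, matched 7 of the 10 genes with 11 windows. Scd1, Elovl3 and Dgat2 were not among them. The 250 bases before the annotated start are printed 5′ to 3′ on the gene's own strand, and capitals mark each NF-Y box, CCAAT, or its reverse complement ATTGG.
Fasn, minus strand, chr11:120824548-120824797: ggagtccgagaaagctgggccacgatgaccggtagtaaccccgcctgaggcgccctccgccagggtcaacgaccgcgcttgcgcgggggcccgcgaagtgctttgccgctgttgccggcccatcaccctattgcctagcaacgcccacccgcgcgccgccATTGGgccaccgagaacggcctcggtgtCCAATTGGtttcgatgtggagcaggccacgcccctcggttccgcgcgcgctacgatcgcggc
Elovl4, minus strand, chr9:83806306-83806555: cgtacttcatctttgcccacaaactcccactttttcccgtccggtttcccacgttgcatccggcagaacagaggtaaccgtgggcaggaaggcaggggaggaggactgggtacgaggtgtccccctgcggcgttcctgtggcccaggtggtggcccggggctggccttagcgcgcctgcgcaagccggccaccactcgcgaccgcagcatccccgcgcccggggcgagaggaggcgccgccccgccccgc
Soat1, minus strand, chr1:156474329-156474578: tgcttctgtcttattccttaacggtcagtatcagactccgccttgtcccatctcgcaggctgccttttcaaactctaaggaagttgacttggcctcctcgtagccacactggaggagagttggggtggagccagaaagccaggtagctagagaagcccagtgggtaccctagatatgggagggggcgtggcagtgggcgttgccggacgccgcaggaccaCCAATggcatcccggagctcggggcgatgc
Awat2, minus strand, chrX:100442718-100442967: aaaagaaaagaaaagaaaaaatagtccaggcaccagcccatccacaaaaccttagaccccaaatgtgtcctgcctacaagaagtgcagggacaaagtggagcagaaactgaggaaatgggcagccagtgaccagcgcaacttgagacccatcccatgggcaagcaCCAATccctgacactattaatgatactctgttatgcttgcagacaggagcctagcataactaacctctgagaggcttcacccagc

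The Fasn window held 3 NF-Y boxes, counted from the start at bases -90 to -86, -62 to -58 and -59 to -55, and the last 2 overlap in the run CCAATTGG. Soat1 had 1 box at -30 to -26 and the printed window of Awat2 had 1 at -85 to -81, while that of Elovl4 lay after the start, at 26 to 30, outside the printed bases. A further window of Awat2, at another annotated start, held a box at -121 to -117. On either strand, 7 of the 11 windows, belonging to 5 of the 7 genes, held the box, beside 37.4% of the 32851 RefSeq windows. The DR1 element bound by PPARγ with its partner RXR was searched as AGGNCA repeated after 1 base of any kind, and the sterol regulatory element as TCACNCCAC. They were in 0.381% and 1.24% of all windows and in 0 of the 11 windows. These are matches of letters in short windows, not tests of binding.

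Dab2, whose floxed alleles were the target, had more counts in every library labelled Dab2-cKO than in any labelled WT. Its normalized counts (counts scaled by TMM to a common library size) were 338.5, 332.2 and 309.3 in WT and 1434, 1300 and 1390 in Dab2-cKO. On the log2 scale Dab2-cKO exceeded WT by 2.08 ± 0.08 (SE, edgeR adjusted p = 3.04e-34). This goes against the label of a knockout. Counts cover the whole gene, so they do not measure the deletion itself. The reason for the higher count was not tested. Which libraries are high and low is therefore given by label throughout, and every direction depends on those labels.

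Although the cells were sorted, markers of fibroblasts and of skeletal muscle took more counts than bulge markers in every library, 1.40% and 0.683% against 0.156% in WT, and 3.41% and 2.22% against 0.176% in Dab2-cKO. These shares depend on the genes listed and were not divided by exon length. Normalized counts per kb of exon in WT were 288 for Ttn and 1730 for Acta1 (muscle). They were 7018 for Col1a1 (fibroblasts) and 1986 for Krt15 (bulge). The libraries held 7040032 to 11696457 counts. Mitochondrial genes took 13.0% to 14.5% of the WT counts and 19.1% to 20.3% of the Dab2-cKO counts, and the TMM factors were 1.11 to 1.21 and 0.847 to 0.876. Of 32149 genes tested, edgeR called 5387 higher (16.8%) and 3682 lower (11.5%) in Dab2-cKO at an adjusted p under 0.05. The balance of calls moved with the scaling. Upper-quartile scaling gave 4281 higher and 5561 lower, library size alone gave 2686 (8.35%) and 11168 (34.7%), and scaling to the summed basal keratinocyte markers gave 3032 and 9315. These scalings moved the median log2 fold change over all genes from -0.02 to -0.17, -0.45 and -0.38.

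All 10 sebaceous gland lipid genes passed the filter on low counts and were called higher in Dab2-cKO, against 16.8% of genes tested, although under 3 other scalings Fasn was not called higher. In all 10 the 3 Dab2-cKO libraries lay above the 3 WT libraries, as they did for 20.6% of genes tested. Calls were commoner among abundant genes. Of the 10846 genes whose normalized count averaged 100 or more, 37.6% were called higher and 22.8% lower. The calls in each list below stand beside these shares and those over all genes tested. Among the 10, 8 were both called and more than 2-fold higher, against 6.40% of genes tested and 12.6% of the abundant genes. Their median log2 fold change was 1.27, beside -0.02 over all genes tested and 0.10 over the abundant ones. Together they took 0.179% ± 0.0057 of the WT counts and 0.375% ± 0.0095 of the Dab2-cKO counts (SD, n = 3). In bulk RNA a change in the number of cells of a type and a change in the RNA per cell cannot be told apart.

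**Figure D1:**
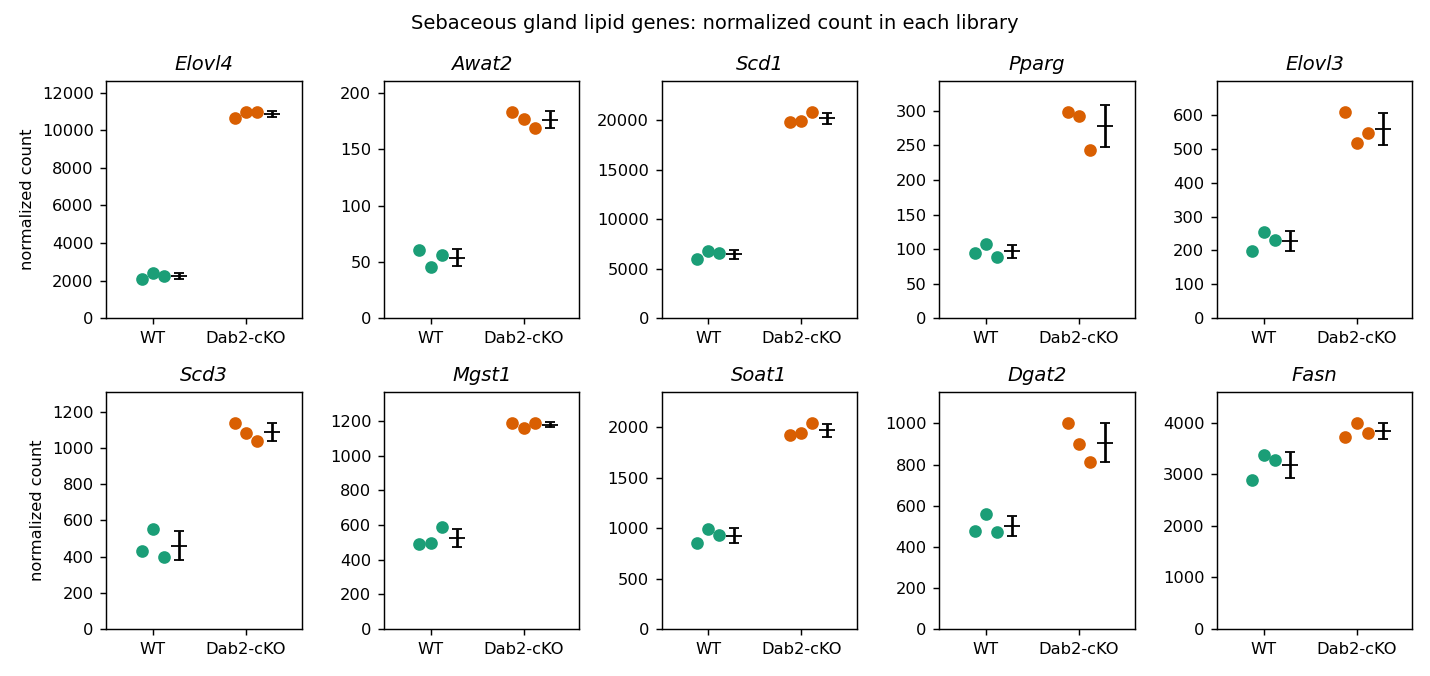
Normalized count of each of the 10 genes (linear vertical axes from 0, one panel a gene, ordered by fold change) in the 3 WT and 3 Dab2-cKO libraries. Points are libraries, and bars to the right of them give the mean and SD. The 2 genotypes do not overlap in any panel, and Fasn, whose direction turns with library size scaling, has the narrowest gap.

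Scd1 and Scd3 encode stearoyl-CoA desaturases, which place a double bond in saturated fatty acids. Loss of Scd1 in mice is known for atrophic sebaceous glands and a dry coat, and Scd3 is a skin-enriched member of the family. Scd1 (ENSMUSG00000037071, chr19:44382894-44399154 on GRCm39, minus strand) had normalized counts of 5937, 6820 and 6590 in WT and 19840, 19950 and 20850 in Dab2-cKO. Every Dab2-cKO library was far above the highest WT library, and the SD within a genotype was 458 and 550. The log2 fold change was 1.65 ± 0.07 (SE, edgeR adjusted p = 2.6e-32). Scd3 (ENSMUSG00000025202, chr19:44191708-44232455, plus strand) lies in the same gene cluster as Scd1, Scd2 and Scd4. Its normalized counts were 430.9, 549.8 and 397.3 in WT and 1140, 1085 and 1041 in Dab2-cKO. The groups were again apart, with a log2 fold change of 1.24 (edgeR adjusted p = 6.04e-21).

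The desaturases share sequence, so reads could be split between them. Of all distinct 100-base windows of annotated Scd1 transcripts, 1.13% were found without a mismatch in Scd3 and 0.628% in Scd2. For Scd3, 2.49% were in Scd1 and 0.754% in Scd2. Windows that differ by a base or more were not counted, and how reads with several positions were counted was not given in the sources used here.

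Scd2, the other abundant desaturase and the form best known from brain and newborn skin, went the other way. It fell from 2990 ± 146 to 1058 ± 28 normalized counts (SD, n = 3), a log2 fold change of -1.50 (edgeR adjusted p = 4.33e-29). Scd4 was low, at 61.4 ± 13.8 and 40.7 ± 10.8, and was not called. Per kb of exon, Scd1 made up 62.3% ± 1.3 of the summed SCD level in WT and 86.0% ± 0.79 in Dab2-cKO. Scd2 held 27.7% ± 0.52 and 4.31% ± 0.17, and Scd3 held 8.98% ± 1.1 and 9.40% ± 0.57. The ratio of Scd1 to Scd2 within a library needs no scaling between libraries. It was 2.17, 2.26 and 2.32 in WT and 19.0, 19.9 and 20.9 in Dab2-cKO. The 2 ranges are far apart, and the exact permutation p was 0.1, the smallest that 3 against 3 allows. As Scd1 rose and Scd2 fell without overlap, that p followed from the 2 changes and adds no test.

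**Figure D2:**
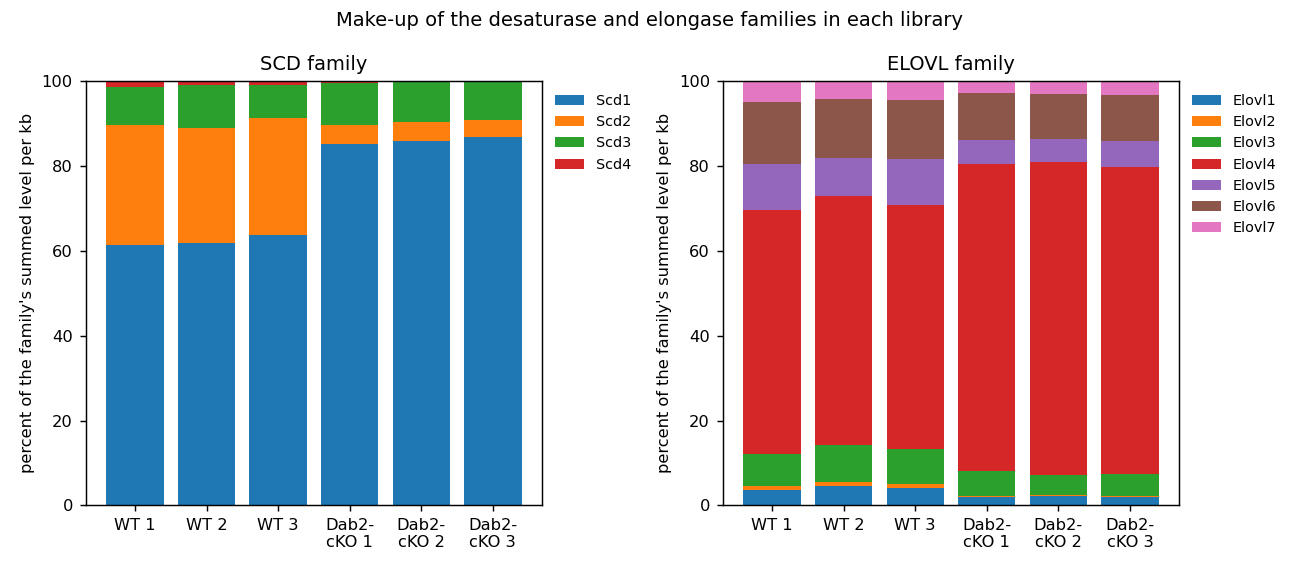
Share of each gene in the summed level of its family (percent of normalized counts per kb of exon) in the 6 libraries, for the SCD desaturases on the left and the ELOVL elongases on the right. Scd1 widened from 62.3% to 86.0% as Scd2 narrowed from 27.7% to 4.31%, and Elovl4 widened from 57.9% to 72.8%.

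Elovl3 and Elovl4 encode elongases, which add carbons to fatty acids. ELOVL3 is known from sebaceous glands and hair follicles, and ELOVL4 makes the very long chains of meibum, retina and the skin barrier. Elovl4 (ENSMUSG00000032262, chr9:83660744-83688430, minus strand) showed the largest change of the 10 genes. It had normalized counts of 2110, 2396 and 2233 in WT and 10670, 10960 and 10970 in Dab2-cKO. All 3 Dab2-cKO libraries were close together and well above WT, with a log2 fold change of 2.27 (edgeR adjusted p = 1.45e-39). Elovl3 (ENSMUSG00000038754, chr19:46119917-46124133, plus strand) had 198.2, 255.5 and 230.7 in WT and 608.4, 517.8 and 547.4 in Dab2-cKO. Its log2 fold change was 1.29 (edgeR adjusted p = 4.89e-18), and the lowest Dab2-cKO library stood above the highest WT library. A part of 18.3% of Elovl3 exon bases overlaps Pitx3 on the opposite strand, and Pitx3 had only 9 to 36 counts a library. No 100-base transcript window of either gene was found in another elongase.

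Elovl4 gained over Elovl3 within the family. The per-kb ratio of Elovl4 to Elovl3 was 7.18 ± 0.48 in WT and 14.2 ± 1.3 in Dab2-cKO (exact permutation p = 0.1, the smallest possible), without overlap. Of the 7 other SCD and ELOVL genes, 4 were called higher, 1 lower and 2 were not called, with a median log2 fold change of 0.94. Elovl6, which makes stearate from palmitate, rose from 1470 ± 44 to 4421 ± 120 (log2 fold change 1.59, edgeR adjusted p = 8.68e-31). Elovl7 rose by 1.36 on the log2 scale (edgeR adjusted p = 7.62e-23). Elovl1 and Elovl5, chosen for naming after their values were seen, rose by 0.94 and 1.10. Elovl2, also so chosen, was at 52.6 ± 4.5 and 60.3 ± 5.5 and was not called. Of all genes tested 16.8% were called higher, and of the abundant genes 37.6%.

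Awat2, Dgat2 and Soat1 encode the enzymes that make the esters of sebum. AWAT2 joins fatty acids to long-chain alcohols to form wax esters, DGAT2 adds the last fatty acid of a triglyceride, and SOAT1 esterifies cholesterol. Awat2 (ENSMUSG00000031220, chrX:99445827-99486323, minus strand) had normalized counts of 60.1, 45.1 and 56.4 in WT and 183.1, 177.2 and 168.9 in Dab2-cKO. This is the scarcest of the 10 by counts, from 50 to 66 raw counts in WT, but the genotypes were apart, with a log2 fold change of 1.72 ± 0.17 (SE, edgeR adjusted p = 7.32e-14). Soat1 (ENSMUSG00000026600, chr1:156252095-156303864, minus strand) went from 848.4, 994.9 and 934.7 to 1922, 1947 and 2046. Its log2 fold change was 1.09 (edgeR adjusted p = 1.34e-21). Dgat2 (ENSMUSG00000030747, chr7:98802491-98831991, minus strand) was at 475.4, 557.0 and 472.5 in WT and 1004, 899.8 and 813.4 in Dab2-cKO. It had the second smallest change, 0.85 (edgeR adjusted p = 4.04e-14), and the widest spread among the Dab2-cKO libraries of the 3 acyltransferases, with an SD of 95.5.

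The wider set of ester genes moved in the same direction where it moved. Of 11 other wax, sterol and triglyceride ester genes tested, 7 were called higher, 0 lower and 4 were not called. Of all genes tested 16.8% were higher and 11.5% lower, and of the abundant genes 37.6% and 22.8%. The summed normalized count of the 11 ester genes was 3.17 times as high in Dab2-cKO. Far2, a reductase that supplies the fatty alcohols of waxes, rose from 610 ± 88 to 4007 ± 28 (log2 fold change 2.71, edgeR adjusted p = 3.3e-41). A part of 22.6% of Far2 exon bases overlaps Ergic2 and Far2os2 on the opposite strand. Awat1, a wax synthase closely related to AWAT2, rose from 84.5 ± 4.1 to 552 ± 19 (2.71, edgeR adjusted p = 1.08e-31). Both changes were larger than that of any of the 10 genes. Within the DGAT2 family of 6 genes, Awat1 went from 28.5% ± 1.3 to 53.8% ± 1.7 of the summed level per kb. Dgat2 went from 38.9% ± 2.0 to 20.3% ± 1.3, and Awat2 had 11.8% ± 2.3 and 11.1% ± 0.24, which overlap. The 4 genes not called, Soat2, Mogat1, Mogat2 and Agpat2, had log2 fold changes between -0.25 and 0.44.

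Pparg (ENSMUSG00000000440, chr6:115337675-115468268, plus strand), the gene of the nuclear receptor PPARγ, was the lowest of the 10 per length of exon. It had normalized counts of 94.6, 107.4 and 88.9 in WT and 298.5, 292.3 and 243.9 in Dab2-cKO. The groups were separate and the log2 fold change was 1.52 (edgeR adjusted p = 9.28e-16). Per kb of exon its WT level was 13.9 ± 1.4, just above 11.8. That value is the 95th percentile of chemosensory receptor genes, used as a background and taken from the mean of all 6 libraries. In Dab2-cKO the level of Pparg was 39.9 ± 4.3. Its WT level thus lay close to the upper end of that background.

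Mgst1 (ENSMUSG00000008540, chr6:138117314-138133774, plus strand) encodes a microsomal glutathione transferase, an enzyme that protects membrane lipid from oxidation and is abundant in sebocytes. Its normalized counts were 493.2, 495.6 and 587.8 in WT and 1188, 1162 and 1191 in Dab2-cKO, a log2 fold change of 1.16 (edgeR adjusted p = 2.89e-21). The Dab2-cKO libraries agreed within an SD of 15.9. Among 5 related genes of its enzyme family, 2 were called higher, 1 lower and 2 were not called. Of all genes tested 16.8% were called higher and 11.5% lower, and of the abundant genes 37.6% and 22.8%. Ptges, the prostaglandin E synthase of the family, rose from 99.2 ± 6.9 to 209 ± 19 (edgeR adjusted p = 2.01e-09). Mgst3 fell from 230 ± 20 to 146 ± 27 (edgeR adjusted p = 4.48e-05). Alox5ap, an immune cell gene of leukotriene synthesis named after its value was seen, rose from 23.2 ± 4.7 to 93.9 ± 16.3.

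Fasn (ENSMUSG00000025153, chr11:120696672-120715995, minus strand), the gene of fatty acid synthase, makes the palmitate from which the other enzymes work. It stood apart from the other 9 genes by the size of its change. Its normalized counts were 2886, 3368 and 3273 in WT and 3712, 3998 and 3798 in Dab2-cKO. The genotypes were apart, but the log2 fold change was only 0.27 ± 0.07 (SE, edgeR adjusted p = 1.33e-03), and with library size scaling it was -0.15 (edgeR adjusted p = 0.013). With upper-quartile scaling it was 0.13 (edgeR adjusted p = 0.0639) and with scaling to basal keratinocyte markers -0.081 (edgeR adjusted p = 0.168). Measured from the median of all genes, it was between 0.29 and 0.30 under the TMM, upper-quartile, library size and basal keratinocyte scalings. A change of scaling moves all genes by nearly the same amount, so this agreement follows from the subtraction. It is no check of the rise of Fasn. In the test against a 1.5-fold change, 9 of the 10 genes were called and Fasn was not (edgeR adjusted p = 1.0), beside 6.91% of genes tested that were called higher.

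Ratios within a library show the unequal change without any scaling between libraries. These pairs were chosen after the values were seen. The per-kb ratio of Scd1 to Fasn was 3.30 ± 0.037 in WT and 8.57 ± 0.42 in Dab2-cKO, and that of Elovl4 to Fasn was 2.65 ± 0.092 and 10.6 ± 0.31. The ratio of Mgst1 to Fasn was 0.955 ± 0.097 and 1.77 ± 0.089. None of these ranges overlapped between genotypes (exact permutation p = 0.1 each, the smallest possible).

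The genes around Fasn were mixed. Of 22 fatty acid synthesis and activation genes, 14 were called higher, 5 lower and 3 were not called, with a median log2 fold change of 0.56. With library size scaling 9 were higher and 6 lower. The shares called among the abundant genes were 37.6% higher and 22.8% lower. Acacb, the acetyl-CoA carboxylase tied to control of fat burning, rose from 561 ± 42 to 2408 ± 102 (log2 fold change 2.10, edgeR adjusted p = 2.54e-36). Acaca, its paralog that feeds FASN, fell from 1792 ± 58 to 1209 ± 20 (-0.57, edgeR adjusted p = 1.76e-10) and was named after its value was seen. The per-kb ratio of Acacb to Acaca was 0.565 ± 0.025 in WT and 3.60 ± 0.091 in Dab2-cKO. Acsbg1, an acyl-CoA synthetase, rose from 426 ± 6.4 to 1480 ± 34 (edgeR adjusted p = 7.29e-32), although 28.6% of its exon bases overlap Idh3a on the opposite strand.

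The falls in this list included the desaturases of polyunsaturated fatty acids. Fads2 fell from 279 ± 2.9 to 76.1 ± 10.1 (log2 fold change -1.87, edgeR adjusted p = 6.4e-19). Acsl3, an acyl-CoA synthetase of lipid droplets, fell from 658 ± 29 to 227 ± 11 (-1.53, edgeR adjusted p = 4.83e-23). The remaining called falls, Fads1 and the sterol sensor partner Insig1, had log2 fold changes of -0.47 and -0.69. Acly, which makes the acetyl-CoA used by FASN, had 0.38, and -0.04 with library size scaling. Srebf1, the gene of the main transcription factor of fatty acid synthesis, went from 493 ± 51 to 779 ± 45 (edgeR adjusted p = 4.26e-10). Fads1, Insig1, Acly and Srebf1 were named after their values were seen.

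**Figure D3:**
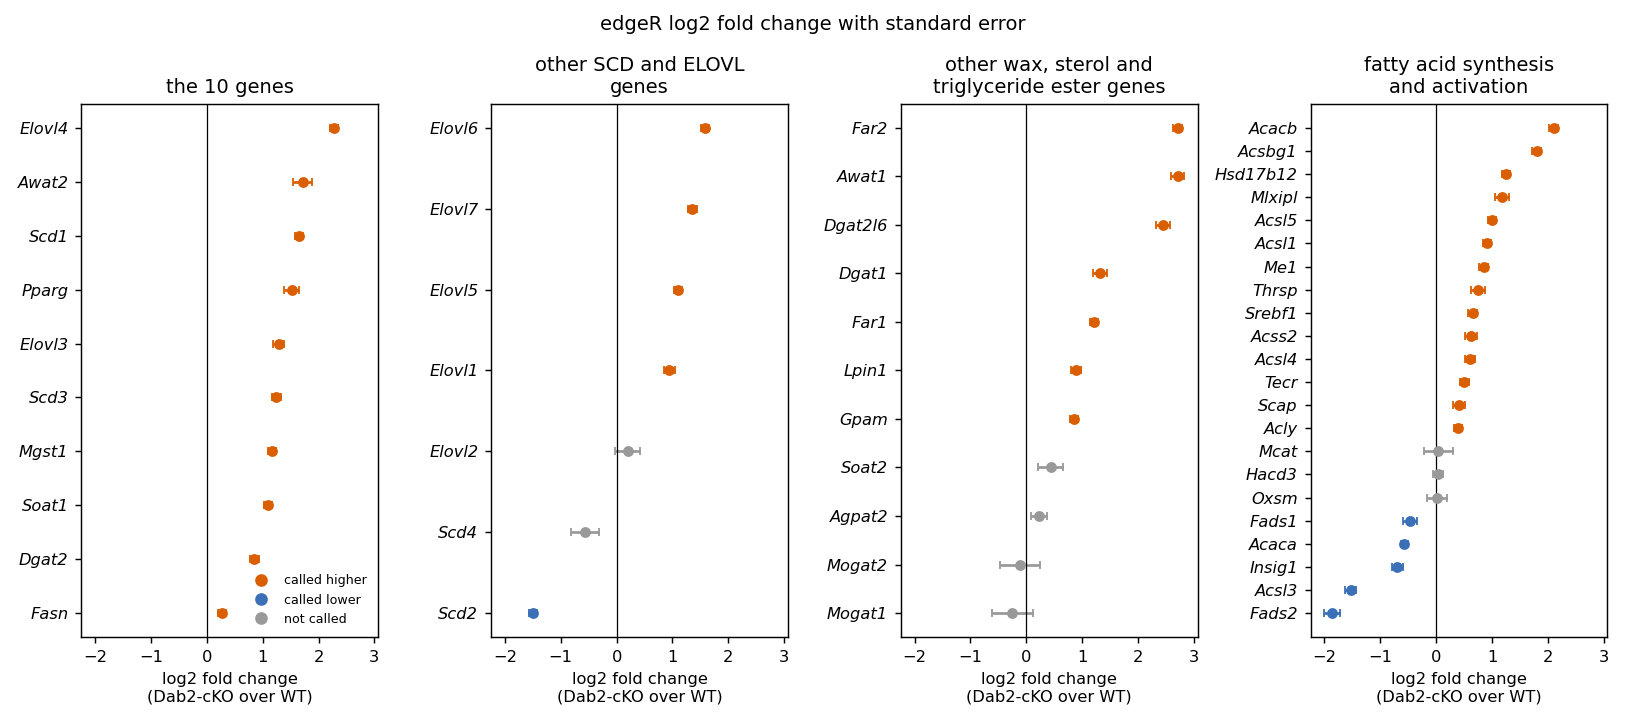
edgeR log2 fold change, Dab2-cKO against WT (horizontal axes), with its standard error for the 10 genes and for 3 lists of related lipid genes, coloured by call at an adjusted p under 0.05. The 10 genes run from 0.27 for Fasn, which is -0.15 with library size scaling, to 2.27 for Elovl4, while Scd2, Acaca, Acsl3 and Fads2 lie to the left of 0.

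The order of levels per kb of exon was led by Scd1 and Elovl4 in both genotypes. In WT, Scd1 was at 895 ± 64 normalized counts per kb and Elovl4 at 718 ± 46. Fasn (271 ± 22) and Mgst1 (258 ± 27) followed and overlapped each other. Scd3 (129 ± 23), Elovl3 (101 ± 13), Soat1 (86.7 ± 6.9) and Dgat2 (83.1 ± 7.9) formed a run in which each overlapped the next. Awat2 (25.1 ± 3.6) and Pparg (13.9 ± 1.4) were lowest and apart from each other.

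In Dab2-cKO, Elovl4 came first with 3474 ± 53 per kb and Scd1 second with 2805 ± 76, without overlap. The ratio of Elovl4 to Scd1 was 0.781 to 0.819 in WT and 1.21 to 1.26 in Dab2-cKO, so the order turned in every library. Mgst1 (580 ± 7.8) passed Fasn (328 ± 13), and Fasn overlapped Scd3 (306 ± 14). The remaining order, from Elovl3 (246 ± 20) through Soat1 (185 ± 6.1), Dgat2 (150 ± 16) and Awat2 (82.2 ± 3.3) to Pparg, was the same as in WT and no neighbours overlapped there.

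**Figure D4:**
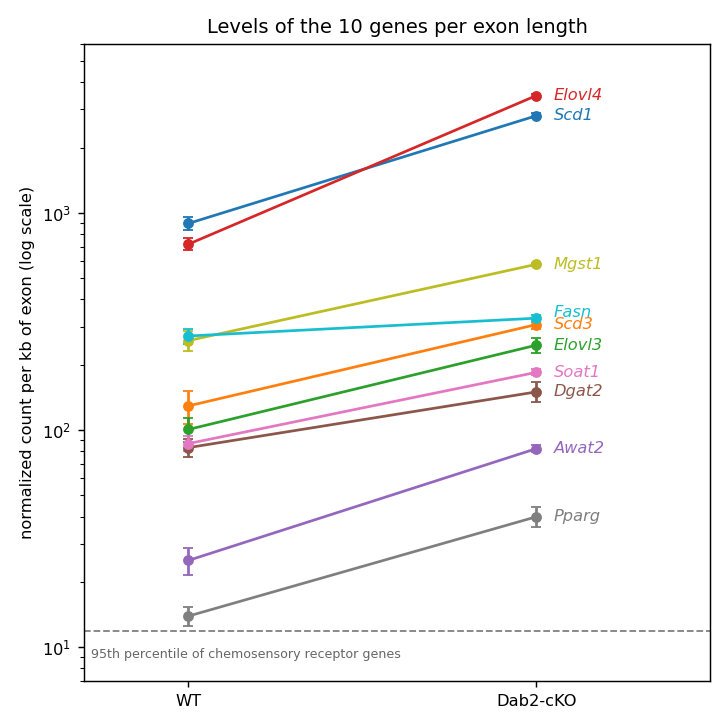
Level of the 10 genes in normalized counts per kb of exon (log axis) in WT and Dab2-cKO, as means with SD over 3 libraries. The dashed line is the 95th percentile of chemosensory receptor genes (11.8). Elovl4 passes Scd1 and Mgst1 passes Fasn, and Pparg in WT lies just above the line. The small rise of Fasn turns with library size scaling.

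Markers of sebocytes and their regulators moved with the 10 genes in part. Of 24 tested, 16 were called higher, 3 lower and 5 were not called, with a median log2 fold change of 0.80. With library size scaling 12 were higher and 7 lower. Among the abundant genes 37.6% were called higher and 22.8% lower. The summed normalized count of the sebocyte list was 1.82 times as high in Dab2-cKO, beside 2.80 times for the 10 genes. These sums follow the abundant genes. Scd1 (20210) and Elovl4 (10860) held most of the Dab2-cKO sum of the 10, which lay between 40570 and 41660. Fabp5, the most abundant of the sebocyte list, hardly changed. The median log2 fold change of the 10 genes was 1.27. Fa2h, which hydroxylates fatty acids for sphingolipids, rose from 341 ± 47 to 1697 ± 49 (log2 fold change 2.31, edgeR adjusted p = 2.06e-36). Mgll, monoglyceride lipase, rose from 743 ± 51 to 3303 ± 25 (2.15, edgeR adjusted p = 2.54e-37), and Lpl, lipoprotein lipase, from 1819 ± 140 to 3404 ± 128 (0.90, edgeR adjusted p = 5.2e-18).

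Other genes of that list did not follow. Prdm1, the gene of BLIMP1, a repressor found in differentiating sebocytes and other skin cells, fell from 574 ± 28 to 262 ± 17 (edgeR adjusted p = 1.01e-16). Cers3, a ceramide synthase of the barrier, fell from 382 ± 48 to 240 ± 16 (edgeR adjusted p = 3.47e-07). Fabp5, a fatty acid carrier and the most abundant of the list, was at 3199 ± 278 and 3340 ± 34 and was not called (edgeR adjusted p = 0.602). Mc5r, the melanocortin receptor that stimulates sebum, was at 209 ± 19 and 187 ± 10 and was not called (edgeR adjusted p = 0.405). Lrig1, a marker of the stem cells that feed the gland, fell from 858 ± 16 to 675 ± 53 (edgeR adjusted p = 1.79e-04). Mc5r and Lrig1 were named after their values were seen.

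Genes of adipocytes, which share PPARγ and much of lipid synthesis with sebocytes, were higher as well. Of 12 adipocyte markers, 10 were called higher, 1 (Lep, -0.46) lower and 1 (Retn) was not called. Their summed normalized count lay between 20980 and 21650 in Dab2-cKO and was at most 6588 in WT, a ratio of 3.35. Car3 rose from 1723 ± 31 to 8329 ± 139 (log2 fold change 2.27, edgeR adjusted p = 9.42e-40) and Fabp4 from 2179 ± 89 to 4178 ± 70 (0.94, edgeR adjusted p = 2.56e-19). The per-kb ratio of Scd1 to Adipoq, the gene of adiponectin, was 8.30, 8.46 and 7.30 in WT and 7.45, 7.30 and 8.28 in Dab2-cKO (exact permutation p = 0.5). That of Awat2 to Adipoq was 0.227 ± 0.049 and 0.225 ± 0.0064 (exact permutation p = 1.0). Both ratios overlapped between genotypes, but these pairs were chosen after the values were seen. Adipoq had a log2 fold change of 1.70, close to 1.65 for Scd1 and 1.72 for Awat2. The overlap and these p-values followed from that choice and add no test. Over the 12 adipocyte markers the log2 fold change ran from -0.46 to 3.00. The part of adipocyte RNA in the rise of the 10 genes was not tested.

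Markers of dermal and other cells moved in the same direction. Of 10 fibroblast markers 10 were called higher, and their share of counts went from 1.40% ± 0.072 to 3.41% ± 0.15. Col1a1 rose from 46090 ± 4756 to 135900 ± 2670 and Col3a1 from 33680 ± 3144 to 133000 ± 4619. The per-kb ratio of Scd1 to Col1a1 was 0.128 ± 0.0049 in WT and 0.135 ± 0.0041 in Dab2-cKO, a small difference beside the change of either gene. The ranges narrowly did not overlap, with 0.1309 the highest in WT and 0.1313 the lowest in Dab2-cKO (exact permutation p = 0.1, the smallest possible).

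Likewise 10 of 10 endothelial markers, 10 of 12 immune markers and 8 of 8 skeletal muscle markers were called higher. Their summed counts rose 3.48, 4.20 and 4.35 times. Vwf and Plvap (endothelium) had log2 fold changes of 1.54 and 2.48, Cd74 and Lyz2 (immune cells) 2.23 and 2.53, and Ttn and Acta1 (muscle fibres) 1.92 and 2.65. Muscle markers took 0.683% ± 0.024 of counts in WT and 2.22% ± 0.047 in Dab2-cKO, more than the 0.156% ± 0.0038 and 0.176% ± 0.0026 of the HFSC bulge markers. Exon length was not accounted for in these shares. None of these marker lists was at 0 in any library. Their part in the change of the 10 genes was not tested.

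Among epithelial lists, 10 of 12 differentiated epidermis markers were called higher and 2 (Ivl and Klk7) lower. Krt10 rose from 3985 ± 347 to 20670 ± 134 and Flg2 from 5900 ± 527 to 16140 ± 544. Scd1 lost ground to Krt10, with a per-kb ratio of 0.478 ± 0.013 in WT and 0.289 ± 0.0063 in Dab2-cKO. Basal keratinocyte markers were mixed, with 6 of 10 higher and 4 lower, beside 37.6% and 22.8% of the abundant genes. Krt14, whose promoter drives the Cre, rose from 6378 ± 420 to 11470 ± 255 and Krt5 from 6918 ± 523 to 10600 ± 208. The ratio of Scd1 to Krt14 was 0.263 ± 0.0017 and 0.458 ± 0.015, and that of Fasn to Krt14 was 0.0797 ± 0.0014 and 0.0535 ± 0.00097. Against Krt14, Scd1 was thus higher and Fasn lower in Dab2-cKO, without overlap in either case. Krt14 was chosen for these ratios after the values were seen, and the result for Fasn depends on that choice. The 4 lower markers, Krt17, Trp63, Perp and Lama3, had log2 fold changes from -1.64 to -0.22, below the 0.27 of Fasn.

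The HFSC bulge markers, 2 of which (Cd34 and Itga6, the gene of α6-integrin) encode the proteins used in the sort, had counts in every library. Of 14, 7 were called higher, 5 lower and 2 were not called, beside 37.6% higher and 22.8% lower among the abundant genes. With library size scaling 5 were higher and 6 lower. Krt15 rose from 3556 ± 234 to 6351 ± 111 (log2 fold change 0.84) and Col17a1 from 2206 ± 166 to 4453 ± 51 (1.01). Cd34 rose from 510 ± 53 to 1780 ± 36. The 5 falls were Sox9, Lhx2, Lgr5, Foxc1 and Tbx1, with the largest fall in Tbx1 (log2 fold change -1.99). Cd34, Itga6 and these 5 genes were named after their values were seen.

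The hair forming lists went down. All 21 hair shaft, inner root sheath and matrix markers tested were called lower, with a median log2 fold change of -6.39, and Krt85 was not analysed here. Tchh fell from 162300 ± 16010 to 1517 ± 14 and Krt71 from 32180 ± 2996 to 262 ± 29. These markers took 3.37% ± 0.16 of the WT counts and 0.0334% ± 0.0012 of the Dab2-cKO counts. Of 9 melanocyte markers 8 fell and Sox10 was not called, and Dct went from 1276 ± 83 to 453 ± 19 and Mitf from 705 ± 61 to 361 ± 26. The 2 genotypes thus differed in the RNA of hair forming cells in the same libraries in which the 10 lipid genes differed, and its part in that difference was not tested.

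**Figure D5:**
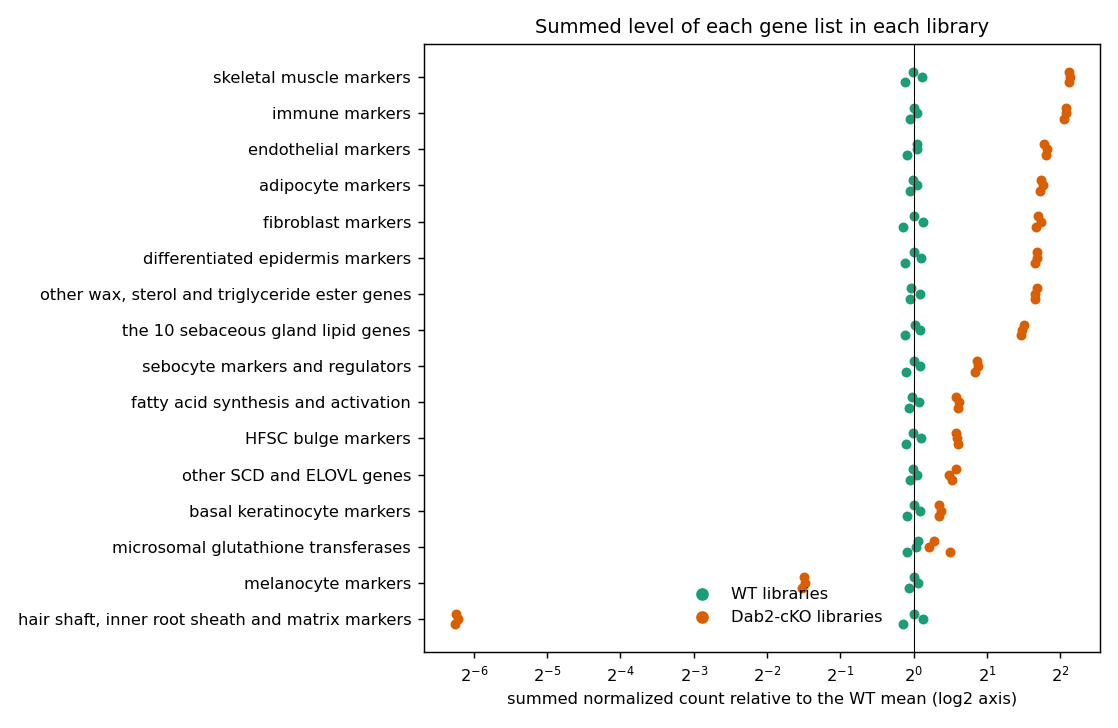
Summed normalized count of each gene list in each library, relative to the WT mean (log2 axis). The 10 lipid genes lie at 2.77 to 2.84 in Dab2-cKO, between the sebocyte list at 1.79 to 1.83 and the fibroblast list at 3.17 to 3.34, while the hair list is at 0.013.

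The profile over the 6 libraries most like that of Elovl4, the gene of the 10 with the highest level per kb as a mean of all 6 libraries, was sought among all other genes tested. The measure was the Euclidean distance between log2 CPM values centred on their mean over the 6 libraries. Tgfbi, an extracellular matrix gene, was nearest at 0.058 log2 units. Trdn (0.079), Apobec2 (0.093) and Klhl41 (0.104), which are genes of muscle, and Cd74 (0.097), a gene of antigen presentation, followed. Among the 10 genes themselves, Scd1 was the nearest to Elovl4 at 0.768, then Awat2 at 0.846 and Pparg at 0.990, and Fasn was the farthest at 2.45. With 2 groups that are far apart, this distance mostly reflects the size of the difference between genotypes.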

How the data were processed

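Total RNA of HFSCs was sequenced in 3 libraries per genotype. The authors used fastp for trimming, HISAT2 for alignment to GRCm39 and featureCounts for counting by gene. The counts were deposited without normalization. They also deposited a table of their own DESeq2 comparison with signal values, log2 fold changes and p-values per gene, which was not used here. The strand setting, the annotation release and the treatment of multimapping reads were not given in the sources used here. Columns named FL-FL were taken as Dab2-cKO, as the heading of the study's principal component plot equates them. The labels call the libraries biological replicates.

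Counts were filtered, scaled by TMM and compared by the quasi-likelihood test of edgeR 4.0.16 in R 4.3.3, with genotype as the only term and Benjamini-Hochberg adjustment over all 32149 genes tested. The procedure was tested on simulated data in which a small set of genes changed, as many up as down. Those data held no shift in composition like the one seen here, so they do not test the scaling. Normalized counts are counts scaled to the mean effective library size. Levels per kb divide them by annotated exon length (GENCODE, GRCm39). Depth was 7040032 to 11696457 counts a library. Intervals and standard errors cover these libraries only. Library pairs within a genotype differed by more than sampling noise, so none was a repeated deposit. Alternatives were DESeq2 1.42.0, 4 other scalings, 2 other filters, a replicate block, a test against a 1.5-fold change and leaving out each library. Scaling to basal keratinocyte markers was added after seeing the data.

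The genes named were the 10 lipid genes, Dab2, the 2 largest rises and falls of each pathway list among called genes whose normalized count averaged 100 or more, the 2 most abundant of each marker list and the 5 profiles nearest to Elovl4. All other genes, including those named to complete a small count within a list, were named after their values were seen. The pairs of genes used for ratios were not set in advance. The 10 genes and the lists were chosen with earlier results of these data known, so no list was tested as a set.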

Additional observations from a re-analysis of the deposited data

How the results depend on the processing

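Over 15 alternatives, 9 of the 10 lipid genes kept their direction and their call, and Fasn was the exception. Its log2 fold change of 0.27 was 0.13 (edgeR adjusted p = 0.0639) with upper-quartile scaling and no longer passed, and in the test against a 1.5-fold change, at 0.27 (edgeR adjusted p = 1.0), it did not pass that stricter limit. It turned to -0.15 (edgeR adjusted p = 0.013) with library size only and to -0.081 (edgeR adjusted p = 0.168) with scaling to basal keratinocyte markers, which moved the median of all genes to -0.45 and -0.38. With library size only, 1 of the 10 genes was called lower. Genes called higher numbered 2686 with library size only, 3032 with basal keratinocyte scaling and 2222 in the test against a 1.5-fold change. Genes called lower numbered 5561 after upper-quartile scaling, 11168 with library size only, 9315 with basal keratinocyte scaling and 1136 in the 1.5-fold test. With library size only, the median level of the 10 genes per kb was 133 in WT and 239 in Dab2-cKO. Of counts outside mitochondrial and rRNA genes, the 10 genes took 0.216% in WT and 0.495% in Dab2-cKO, as the denominator is smaller. Leaving out any of the 6 libraries kept all 10 genes called higher.

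Libraries with the same replicate number deviated from their group means with correlations of 0.138, -0.0484 and 0.104. Those with different numbers had -0.191 to 0.114, so no pairing by number was evident. With 3 libraries a genotype, these values cannot show that the libraries were unpaired. With the replicate block, 5347 genes were called higher and 3620 lower, and all 10 genes were called higher. Depth limits Awat2 and Pparg most, at 50 to 119 counts in each WT library, and intervals cover counting and replicate error only.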
